A study of Mus musculus with 3 samples.

Results

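The endothelial cluster of the scRNA-seq data was described in the D10 culture and in the E14.5 mouse tail. Its cells were those given cluster code 11 by the authors, who clustered the tail cells and placed the culture cells in the tail clusters through nearest neighbors, so that for culture cells the code is an assignment. In these 2 libraries a code is 1 above the cluster number that the study printed. The cluster held 58 of the 7821 cells of the culture (0.742%, 0.564 to 0.958) and 71 of the 2052 cells of the tail (3.46%, 2.71 to 4.34). In all, it held 129 of the 15827 cells of the series, the rest of which included 5954 cells of a culture at D6. The study differentiated mouse embryonic stem cells to tendon cells and compared the product with embryonic tail, where tendons form. The stem cells were derived from blastocysts that carried the ScxGFP reporter, in which regulatory sequence of the tendon transcription factor gene *Scx* drives GFP, and were maintained on feeder cells. Embryoid bodies were treated with LDN-193189, which inhibits BMP receptors, and CHIR, which activates WNT signaling, then replated and given TGFβ1, the hedgehog agonist SAG and FGF2 until D10. The tail was cut from embryos for which the labels give no treatment, and which per the study's methods came from ScxGFP mice on the C57BL6 background and were of both sexes, and their number is not in the labels. The ScxGFP transcript had UMIs in both libraries, and no agent was shared by the 2 groups. Whole culture and whole tail were dissociated, depleted of dead cells and captured without a sort for endothelium, with 1 library each.

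Endothelial cells line blood and lymphatic vessels. VEGF acts through the receptors encoded by *Kdr*, *Flt1* and *Flt4*, and angiopoietins through the receptor encoded by *Tek*, while Notch signaling goes with arterial identity and *Nr2f2* with venous identity. Lymphatic endothelium mostly arises from embryonic veins under the transcription factor PROX1 and depends on the VEGF-C receptor encoded by *Flt4*.

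The culture endothelial cells had 1599 to 14274 unique molecular identifiers (UMIs) per cell, with a median of 5157, and 329803 UMIs together. The tail endothelial cells had 1295 to 45057 UMIs per cell, with a median of 18809, and 1416454 UMIs together. The median number of detected genes was 2506 in culture and 5089 in tail, and the median mitochondrial share was 2.69% and 3.31%. Levels are given in CPM, which scales the summed UMIs of a gene to the total of all genes in the same cells. Numbers in parentheses after a level, ratio or share are exact 95% intervals, and these cover counting error only, as cells of 1 library are not replicates and each condition had 1 library. No test between conditions was made for this reason. Where a gene had no UMI in the cells of 1 library, these cells were set to 3 counts in all, which is 9.10 CPM in culture and 2.12 CPM in tail, and the ratio is a lower bound. Where shares of cells with a UMI are compared at 3000 UMIs, each cell was thinned to that number, which kept 47 culture and 66 tail cells of the cluster. Other counts of cells with a UMI are unthinned, and the deeper tail cells had more chances of a UMI in them.

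Tendon and mesenchyme markers were present in the cluster, and the summed levels of the other marker lists were lower than this list's, apart from haemoglobin in tail. The tendon and mesenchyme list (1 of 15 markers at 0 in culture, none in tail) summed to 1637 CPM in culture and 633 CPM in tail, against 9211 and 9287 CPM in the other cells of each library, and *Scx* is described at the end. *Ptprc* and *Csf1r* of macrophages, *Cdh1* of epithelium, *Myod1* of muscle and *Rgs5* of pericytes had 0 UMIs in both libraries. The macrophage list (8 of 12 markers at 0 in each library) summed to 60.6 CPM in culture and 53.7 CPM in tail, against 31.4 and 229 CPM in the other cells of each library, and the epithelium list to 3.03 and 7.77 CPM, against 667 and 534 CPM. The pericyte list (6 of 11 at 0 in culture, 1 of 11 in tail) summed to 130 and 194 CPM, against 615 and 550 CPM in the other cells of each library. The muscle list (5 of 6 at 0 in culture, 1 of 6 in tail) summed to 18.2 and 12.0 CPM, against 91.8 and 625 CPM. The list of neural markers, with 6 of 7 at 0 in culture and 2 of 7 in tail, summed to 124 and 56.5 CPM, nearly all from *Stmn2*, against 98.0 and 563 CPM in the other cells. Pluripotency markers summed to 9.10 CPM in culture and 1.41 CPM in tail, against 1812 CPM in the other culture cells, and *Nanog* was at 0 in both. The list of megakaryocyte markers, with 4 of 6 at 0 in culture and 3 of 6 in tail, summed to 12.1 and 14.8 CPM. A few cells stood apart. In tail, 2 cells held 4254 and 3789 UMIs of the haemoglobin gene *Hbb-bs*, where no other cell had more than 5, and these 2 cells had 19 and 21 of the 22 endothelial identity genes described below. The tendon collagen gene *Col1a1* was concentrated in the same way, as 1 culture cell held 36 of the 37 UMIs and 1 tail cell held 77 of the 89. Scrublet called this tail cell, which also held all 17 *Tnmd* UMIs of the cluster, a doublet. It called 9 tail cells (0.439%) in all, and 116 culture cells (1.48%), none of them in the cluster. Called cells were kept. The culture and tail libraries shared 4 cell barcodes, none of them of a cell in the cluster.

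The cells of both libraries carried the endothelial program that the cluster's name implies. Of 22 endothelial identity genes, culture cells had UMIs of 3 to 22 with a median of 11.5, and tail cells of 12 to 22 with a median of 21, while the median of the other cells was 1 gene in either library. The 22 genes together took 0.209% to 2.25% of a culture cell's UMIs, with a median of 0.781%, and 0.510% to 3.97% of a tail cell's UMIs, with a median of 1.41%. In the culture all 21 identity genes that passed the detection filter were at least 2-fold higher in the cluster than in the other cells, as were 17.4% of all genes tested, and in the tail all 22 were, against 12.0% of all genes tested. The clustering used these genes, so that nothing follows from these counts. 4 culture cells had fewer than 5 of the identity genes, and no tail cell had.

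Levels of the 3 genes that mark the cluster are given as description only, since the clustering used such genes. *Tie1*, which encodes a receptor of the angiopoietin system, had 206 CPM (160 to 261) in the culture cells and 190 CPM (168 to 214) in the tail cells, against 0.226 and 0.301 CPM in the other cells of each library. *Icam2*, an endothelial adhesion molecule, had 227 CPM (179 to 285) and 461 CPM (426 to 498), against 0.188 and 1.24 CPM elsewhere. *Vwf*, the von Willebrand factor, had 94.0 CPM (63.9 to 133) and 69.2 CPM (56.2 to 84.3), against 1.11 and 0.434 CPM. All 3 markers were near 0 outside the cluster in both libraries. By the rule of the largest ratio over other cells, *Adgrg3*, *Gpihbp1*, *Nts*, *Stab1*, *Mmrn1*, *Lyve1*, *Icam2*, *Tie1*, *Adgrl4* and *Myct1* led in culture, and *Aplnr*, *Myct1*, *Cldn5*, *Gpihbp1*, *Zfp366*, *Plvap*, *Cdh5*, *Tie1*, *Sox17* and *Mmrn1* led in tail. *Gpihbp1*, which encodes the capillary anchor of lipoprotein lipase, *Mmrn1*, *Myct1* and *Tie1* stood in both lists, whereas *Stab1*, *Lyve1* and *Nts* led in culture alone and *Aplnr*, *Plvap* and *Sox17* in tail alone.

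**Figure D1:**
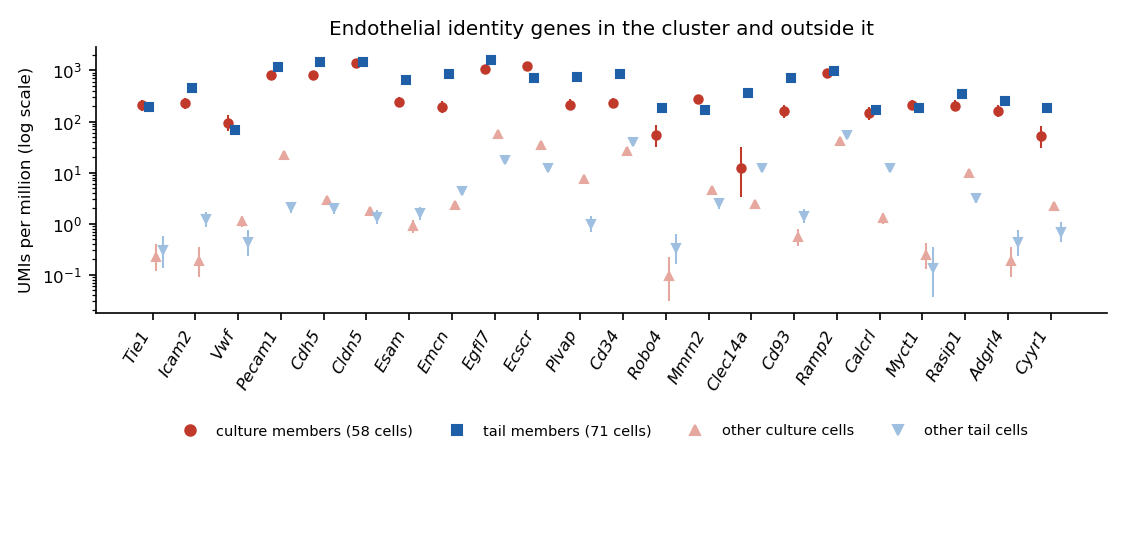
Levels of the 22 endothelial identity genes (CPM, log scale) in the cluster and in the other cells of the culture and the tail. Points are summed levels, bars exact 95% counting intervals, and an open symbol would mark the floor of 3 counts. All 22 genes in tail, and the 21 that passed the filter in culture, are at least 2-fold higher in the cluster than in the other cells. *Clec14a*, which did not pass in culture, is the gene in which culture (12.1 CPM) and tail (364 CPM) cells are farthest apart.

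Promoter sequences of 3 genes are shown because these genes carry the comparisons that follow, *Emcn* as an identity gene higher in tail and *Stab1* and *Prox1* as lymphatic genes higher in culture. They are the 250 bases before the annotated start, taken from RefSeq on build GRCm38.p6 and written on the strand of the gene, and they were chosen after the levels were seen. Capitals mark the letters AGGAAG or, for the opposite strand, CTTCCT, which hold the GGAA core that ETS factors such as ERG and FLI1 are known to bind. The *Emcn* window (chr3:137340828-137341077, forward strand) has 2 matches, the *Stab1* window (chr14:31168642-31168891, reverse strand) has 1 and the *Prox1* window (chr1:190170828-190171077, reverse strand) has 0.
Emcn: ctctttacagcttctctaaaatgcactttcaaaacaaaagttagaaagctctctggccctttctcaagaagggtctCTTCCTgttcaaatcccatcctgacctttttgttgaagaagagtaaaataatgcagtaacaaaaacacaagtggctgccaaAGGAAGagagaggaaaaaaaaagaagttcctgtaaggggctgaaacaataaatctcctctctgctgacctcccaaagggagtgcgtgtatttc
Stab1: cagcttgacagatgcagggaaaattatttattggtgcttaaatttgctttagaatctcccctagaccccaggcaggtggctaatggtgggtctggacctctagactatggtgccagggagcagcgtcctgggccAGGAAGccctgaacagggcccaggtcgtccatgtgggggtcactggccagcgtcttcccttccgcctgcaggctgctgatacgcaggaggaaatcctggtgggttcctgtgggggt
Prox1: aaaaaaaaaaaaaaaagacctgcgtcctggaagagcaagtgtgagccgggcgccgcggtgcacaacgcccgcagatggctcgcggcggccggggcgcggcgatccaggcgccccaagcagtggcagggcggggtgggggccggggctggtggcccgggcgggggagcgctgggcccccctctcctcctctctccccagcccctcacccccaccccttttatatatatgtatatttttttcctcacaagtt

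The letters were searched on both strands, with no other motif. They were present in 29.5% of all 32851 windows of the same length, in 9 of the 12 identity genes that had a window, in 3 of the 12 endothelial transcription factors and in 3 of the 8 lymphatic genes. A match is a description of letters, and its absence from a window says nothing of the factor.

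The culture and tail endothelial cells were compared next. Of 10194 genes detected in 10% or more of the culture cells or of the tail cells, 1414 (13.9%) were at least 2-fold higher in culture and 1577 (15.5%) at least 2-fold higher in tail, and the median log2 ratio of culture over tail was -0.03. A gene detected on 1 side alone passed this filter, so that counts and medians over a list describe its tested genes and not the whole list, and list counts in this comparison stand against these shares of 13.9% and 15.5%. Among the identity genes none was called higher in the culture cells. Of the 22 genes, all tested, 9 were at least 2-fold higher in tail, and the median log2 ratio was -0.70.

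*Clec14a*, which encodes an adhesion protein of angiogenic endothelium, had 12.1 CPM (3.30 to 31.1) in culture and 364 CPM (333 to 396) in tail, with a ratio of culture over tail of 0.0334 (0.00905 to 0.0859), or 0.0154 with the mean over cells of each cell's CPM. At 3000 UMIs, 3 of 47 culture cells (6.38%, 1.34 to 17.5) had a UMI of it, against 43 of 66 tail cells (65.2%, 52.4 to 76.5). *Emcn*, encoding the sialomucin endomucin of venous and capillary endothelium, had 194 CPM (149 to 248) and 856 CPM (808 to 905), 4.41-fold higher in tail (3.43 to 5.76). *Cd93*, *Cd34*, *Cyyr1*, *Plvap* and *Robo4* were 4.50, 3.63, 3.60, 3.52 and 3.43-fold higher in tail. *Esam* and *Icam2*, both adhesion molecules, were 2.66-fold (2.11 to 3.38) and 2.03-fold (1.59 to 2.61) higher in tail, and without the cells that had fewer than 5 identity genes the ratio of culture over tail of *Icam2* was 0.514, within 2-fold.

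The other 13 identity genes differed by less than 2-fold, and some of them are given here. *Cdh5*, VE-cadherin, had 831 CPM (735 to 935) in culture and 1446 CPM (1384 to 1510) in tail. *Pecam1* had 804 CPM (710 to 906) and 1186 CPM (1130 to 1244). *Cldn5*, the tight junction claudin, had 1413 CPM (1288 to 1547) and 1483 CPM (1421 to 1548), with a ratio of 0.953 (0.860 to 1.05), and *Tie1* had a ratio of 1.09 (0.819 to 1.42). With the mean over cells of each cell's CPM these ratios were 0.733 and 0.762. In tail, 4 cells described below held 747 *Cldn5* UMIs, and the other 67 cells had 1028 CPM. *Ecscr* and *Mmrn2* were higher in culture, by 1.67-fold (1.48 to 1.87) and 1.60-fold (1.24 to 2.05), below the 2-fold limit.

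*Prox1*, *Lyve1*, *Ccl21a*, *Pdpn* and *Reln* of the lymphatic list were found almost only in the culture cells. Of the 9 genes of this list, 3 passed the filter in both libraries, these 5 in culture alone and *Stab2* in neither. No count or median over the list is therefore given in the text for this comparison, and each gene is described. *Prox1* had 172 UMIs in 36 of 58 culture cells and 9 UMIs in 5 of 71 tail cells, or 522 CPM (446 to 606) and 6.35 CPM (2.91 to 12.1), an 82.1-fold difference (42.2 to 183). *Lyve1*, the hyaluronan receptor of lymphatic endothelium, had 224 UMIs in 27 culture cells and 0 in tail, at least 321-fold higher in culture. *Ccl21a*, the chemokine that draws dendritic cells into lymphatics, had 233 UMIs in 23 culture cells and 0 in tail, at least 334-fold higher, although near-identical copies of this gene could have split its reads.

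*Pdpn*, *Reln*, *Mmrn1* and *Stab1* were higher in culture as well, while *Itga9* and *Stab2* were not called. *Pdpn*, podoplanin, had 255 CPM (203 to 315) in culture and 1 UMI in tail, with a ratio of 361 (63.0 to 14417). This UMI lay in the cell called a doublet described above, without which *Pdpn* was at least 118-fold higher in culture. *Reln*, reelin, had 194 CPM (149 to 248) and likewise 1 UMI in tail, with a ratio of 275 (47.6 to 11024), or 512 with the mean over cells of each cell's CPM. *Mmrn1* had 525 CPM (449 to 609) and 62.1 CPM (49.8 to 76.5), 8.44-fold higher in culture, and *Stab1*, a scavenger receptor, 509 CPM (435 to 593) and 93.2 CPM (78.0 to 111), 5.47-fold higher (4.33 to 6.92). *Itga9* was near equal, with a ratio of 1.35 (0.850 to 2.09), and *Stab2* had 0 UMIs in culture and 1 in tail. The UMIs of these genes in tail were thus nearly all of *Mmrn1*, *Stab1* and *Itga9*.

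The contrast was also present at matched depth. After thinning, 68.1% (52.9 to 80.9) of the culture cells had a *Prox1* UMI and 0 of 66 tail cells, an upper limit of 5.44% for tail cells with a UMI at this depth. Without thinning, 5 of 71 tail cells had one. In the largest cluster of the culture, which should lack the gene, the share was 0.809% (0.502 to 1.23) of the 2595 cells kept. Over all 2964 cells of that cluster the median before thinning was 4918.5 UMIs. In the cluster with code 3 the share was 0.370% (0.101 to 0.945) of 1081 cells. *Lyve1* was found in 48.9% (34.1 to 63.9) of the culture cells and in 0 of the tail cells at this depth, and in 0 cells of the largest culture cluster.

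Further genes with known roles in lymphatic or venous endothelium were compared, most of them chosen after their values were seen. *Flt4*, the receptor for VEGF-C, had 227 CPM (179 to 285) in culture and 77.7 CPM (63.8 to 93.6) in tail, and its co-receptor *Nrp2* had 852 CPM (755 to 958) and 274 CPM (247 to 303), with ratios of culture over tail of 2.93 (2.15 to 3.96) and 3.11 (2.66 to 3.64). *Tbx1* and *Nfatc1*, transcription factors with roles in lymphatic development, had ratios of 2.70 (1.87 to 3.89) and 6.53 (4.48 to 9.61). *Nts*, which encodes the peptide neurotensin, had 1143 CPM (1031 to 1265) in culture against 2 UMIs in tail, with a ratio of 810 (223 to 6709), or 436 with the mean over cells of each cell's CPM. *Nr2f2*, the venous transcription factor, had 285 CPM (230 to 349) and 154 CPM (134 to 176), a ratio of 1.85, and *Ephb4*, the venous ephrin receptor, did not differ beyond its interval, at 1.16 (0.787 to 1.67).

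The culture cells were not uniform in these genes. A *Prox1* UMI was present in 36 of the 58 cells (62.1%, 48.4 to 74.5), and this division was chosen after the values were seen, so that what follows describes it and no more. Cells with a *Prox1* UMI had a median of 5351 UMIs and 213786 together, and the 22 cells without had a median of 4639.5 and 116017 together. 33 culture cells had at least 3 of the 8 other lymphatic genes, and 32 of them had a *Prox1* UMI. Of 8118 genes tested between these cells, 18.6% were at least 2-fold higher with *Prox1* and 13.6% without, and the median log2 ratio was 0.12.

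Most UMIs of *Lyve1*, *Ccl21a*, *Mmrn1*, *Pdpn* and *Stab1* lay in the cells with *Prox1*, and *Itga9* did not divide in this way. *Lyve1* had 223 UMIs with *Prox1* and 1 without, *Ccl21a* 233 and 0, *Mmrn1* 169 and 4, and *Pdpn* 81 and 3. *Stab1* had 159 UMIs in 32 cells with and 9 in 6 cells without, and *Itga9* 16 UMIs in 10 of 36 cells and 12 in 9 of 22. *Nrp2* had 268 and 13 UMIs, *Flt4* 68 and 7, and *Nr2f2* 91 and 3, and the latter was 16.5-fold higher with *Prox1* (5.46 to 81.3). The share of UMIs taken by the lymphatic list without *Prox1* ran from 0.0270% to 1.43% per cell, with a median of 0.345%, in cells with *Prox1*. It ran from 0% to 0.246%, with a median of 0.0164%, in the other culture cells, and from 0% to 0.117%, with a median of 0.0222%, in tail. The summed share in the culture cells without *Prox1* was thus low as in tail, which was not so for each gene, as *Pdpn* had 3 UMIs in these cells and 1 in the deeper tail cells, and the ranges of the cells with and without *Prox1* overlapped at their ends.

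Arterial and tip cell genes such as *Dll4*, *Gja4* and *Esm1* were higher in the cells without *Prox1*. Of 14 Notch and arterial genes tested, from 18 listed, 8 were at least 2-fold higher without *Prox1* (13.6% of all genes) and 2 with (18.6%). Their median log2 ratio was -1.84. Of 8 tip cell genes 6 were higher without and 1 with, with a median of -2.72. These counts are partly set by the filter. Genes with no UMI in the cells with *Prox1*, among them *Esm1*, *Apln*, *Gja5* and *Notch4*, could pass it through the cells without *Prox1* alone. *Esm1*, a tip cell gene, had 66 UMIs in 12 cells without *Prox1* and 0 in those with, at least 40.5-fold higher without. *Dll4*, a Notch ligand, had 35 UMIs without and 10 with, 6.45-fold higher without (3.13 to 14.6), and the arterial connexins *Gja4* and *Gja5* had 54 against 15 and 17 against 0. *Apln* had 21 UMIs and *Nrp1* 42, all in cells without *Prox1*.

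The identity genes were divided. Of the 22, 12 were at least 2-fold higher without *Prox1*, where 13.6% of all genes were, and the median log2 ratio was -1.17. This count is partly set by the filter, which *Esam* and *Vwf* passed through the cells without *Prox1* alone. Higher with *Prox1* were 2, *Ramp2* and *Calcrl*, where 18.6% of all genes were. *Esam* had 80 UMIs, all without *Prox1*, *Vwf* 30 against 1 and *Cd34* 69 against 8, and *Cdh5* was 3.83-fold higher without (2.96 to 4.99). Outside this list, *Pdgfb* had 29 against 1, and *Sox17*, an arterial transcription factor, was 11.1-fold higher without *Prox1* (4.92 to 29.2). *Tie1* was shared, at 210 CPM (154 to 282) with and 198 CPM (126 to 297) without *Prox1*, and so was *Cldn5*, at 1581 CPM (1417 to 1759) and 1103 CPM (920 to 1312). By the rule of the largest ratio, *Lyve1*, *Ccl21a*, *Olfm1*, *Reln*, *Pcsk6*, *Prox1*, *Mmrn1*, *Smoc1*, *Lbp* and *Dmtn* led with *Prox1*, and *Col1a1*, *Vwf*, *Pdgfb*, *Esam*, *Anxa3*, *Esm1*, *Hist1h1b*, *Adgrl2*, *Nrp1* and *Nes* led without, *Col1a1* through 1 cell.

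**Figure D2:**
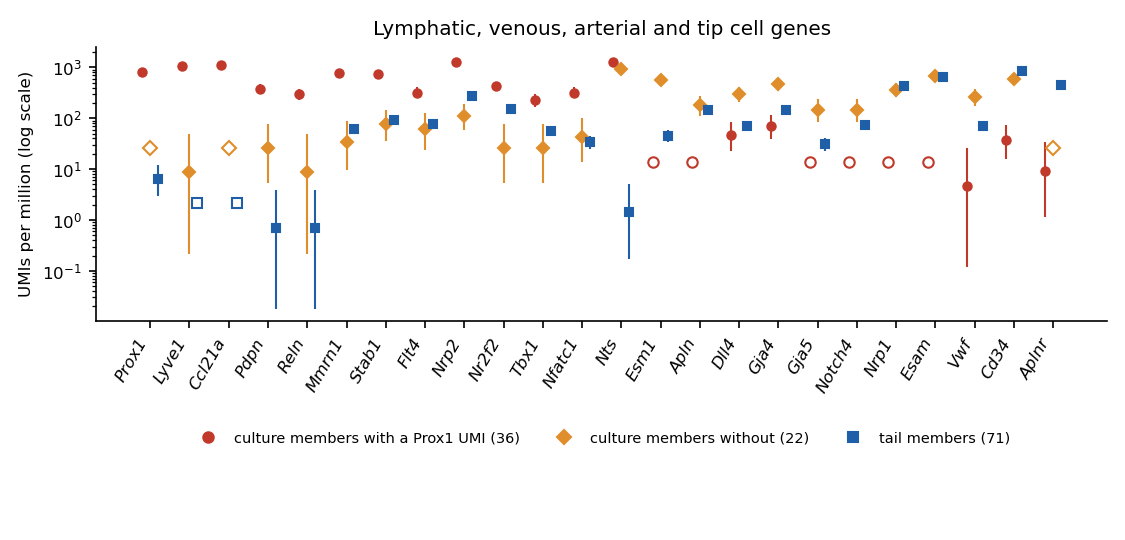
Levels (CPM, log scale) of lymphatic, venous, arterial and tip cell genes in the 36 culture cells with a *Prox1* UMI, the 22 without and the 71 tail cells. Bars are exact 95% counting intervals and open symbols mark the floor of 3 counts where a group had no UMI. *Prox1*, *Lyve1*, *Ccl21a*, *Pdpn*, *Reln*, *Mmrn1* and *Stab1* stand highest with *Prox1*, while *Esm1*, *Apln*, *Gja5*, *Notch4*, *Nrp1* and *Esam* have no UMI there.

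The identity genes were nearer to the tail in cells without *Prox1*. In the cells with *Prox1*, 12 of the 22 identity genes were at least 2-fold higher in tail and none higher in the culture cells, with a median log2 ratio of -1.70, where 16.0% of all genes were higher in tail and 17.5% in culture. This count too is partly set by the filter, which *Esam* and *Vwf* passed through the tail alone. In the cells without *Prox1*, 2 identity genes were higher in tail and 2 in culture, with a median of -0.43, where 12.7% and 12.3% of all genes were. Of the 3 lymphatic genes that could be tested between the cells without *Prox1* and the tail, none was at least 2-fold higher on either side. Of 15 Notch and arterial genes, 6 were higher in the cells without *Prox1* than in tail and 1 in tail, and of 8 tip cell genes 6 were higher in those cells and none in tail.

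**Figure D3:**
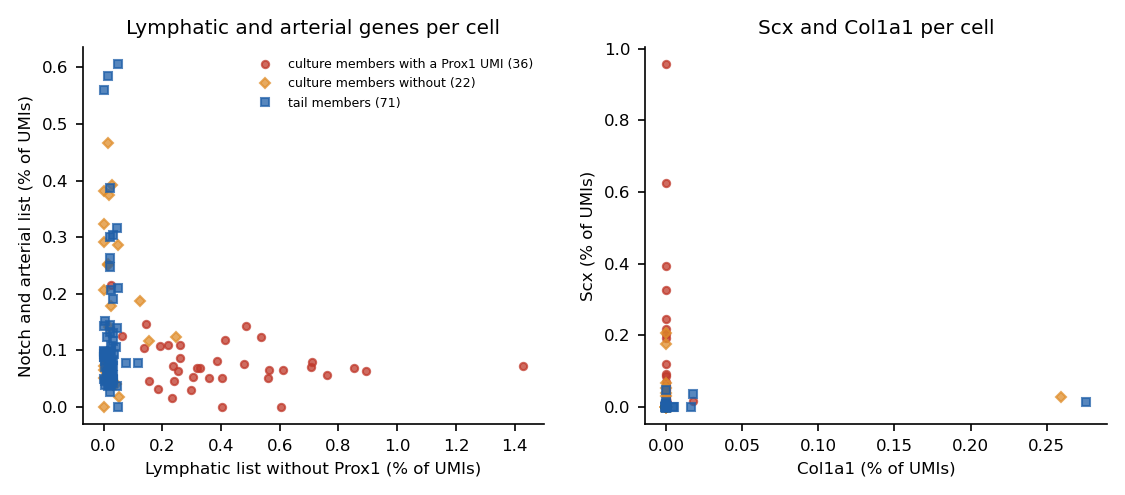
Left, share of each cell's UMIs in the lymphatic list without *Prox1* (x axis, %) and in the Notch and arterial list (y axis, %). Right, share of *Col1a1* (x axis, %) and of *Scx* (y axis, %). Each point is a cell. Cells with *Prox1* spread along the lymphatic axis up to 1.43%, the other culture cells up to 0.246% and the tail cells up to 0.117%. On the y axis the other culture cells have a median of 0.183% and the tail cells of 0.0825%. The cells with the most *Scx* have no *Col1a1*.

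In the tail cells, smaller groups stood out within the cluster, and they too were chosen after the values were seen. 4 of the 71 cells had UMIs of both *Slco1c1* and *Abcb1a*, transporters known from the endothelium of the blood-brain barrier. Their 37 *Slco1c1* UMIs, against 1 in the other 67 cells, follow from this choice. These 4 cells also had 25 UMIs of *Mfsd2a*, a lipid transporter of the same barrier, against 0 in the others. *Slc2a1*, the glucose transporter, had 2871 CPM in them and 200 CPM in the others, 14.4-fold higher (12.1 to 17.1), and *Cldn5* 7498 and 1028 CPM, 7.29-fold higher (6.66 to 7.98). *Plvap*, which encodes the diaphragm protein of fenestrated endothelium, was lower in them, at 321 against 791 CPM, with a ratio of 0.406 (0.276 to 0.577). *Foxq1* and *Lef1*, a transcription factor of WNT signaling, were 31.2-fold (16.2 to 63.0) and 17.0-fold (9.25 to 31.6) higher. The culture cells had 0 UMIs of *Mfsd2a*, *Slco1c1* and *Abcb1a*.

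The arterial connexin genes *Gja4* and *Gja5* were concentrated in few tail cells, while of all 18 Notch and arterial genes a tail cell had UMIs of 0 to 13, with a median of 6. 10 tail cells with at least 5 *Gja4* UMIs held 196 of the 208 UMIs of this gene, and in these cells *Aplnr*, the apelin receptor of venous and capillary endothelium, had 24.1 CPM, against 515 CPM in the other 61. *Gja5* was found in 5 tail cells, and in 4 culture cells, none of which had a *Prox1* UMI. Over the Notch and arterial list, 2 of 14 tested genes were at least 2-fold higher in the culture cells, a share near the 13.9% of all genes, and 4 in tail, where 15.5% were, with a median log2 ratio of 0.05. *Dll4* had 136 CPM (99.5 to 183) in culture and 69.9 CPM (56.8 to 85.1) in tail, and *Notch1* 179 CPM (136 to 231) and 181 CPM (159 to 204). *Unc5b* was 2.98-fold higher in culture (2.20 to 4.02), while *Efnb2*, the arterial ephrin, was 2.30-fold higher in tail (1.52 to 3.62).

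Among genes of the vessel growth pathways, the ligands *Vegfa*, *Vegfb*, *Pgf* and *Angpt2* and the receptors *Flt4* and *Nrp2* were at least 2-fold higher in culture, and the receptors *Nrp1*, *Tek* and *Aplnr* and the ligand *Apln* in tail. Of 9 tested genes of the VEGF list 5 were at least 2-fold higher in culture (13.9% of all genes) and 1 in tail (15.5%), with a median log2 ratio of 1.55. Of these genes, 8 passed the filter in both libraries and 1 in culture alone. *Vegfa* had 167 CPM (126 to 217) in culture and 9.18 CPM (4.89 to 15.7) in tail, an 18.2-fold difference (9.80 to 36.3), or 34.1-fold with the mean over cells of each cell's CPM. *Pgf*, placental growth factor, had 394 CPM (329 to 468) and 4.24 CPM (1.55 to 9.22), 93.1-fold higher in culture (41.6 to 258). *Vegfb* was 4.70-fold higher in culture (3.03 to 7.32), and *Vegfc*, the ligand of *Flt4*, had a ratio of 1.82 (0.901 to 3.50), or 1.18 with the mean over cells of each cell's CPM. *Angpt2*, the angiopoietin made by activated endothelium, was 29.6-fold higher in culture (14.6 to 67.7), or 17.7-fold with the mean over cells of each cell's CPM, with 62 UMIs in 21 cells against 9 UMIs in 8 cells.

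Among the receptors, *Kdr* and *Flt1* had 576 CPM (497 to 664) and 352 CPM (291 to 422) in culture and 959 CPM (908 to 1011) and 553 CPM (515 to 594) in tail. *Tek*, the angiopoietin receptor, was 3.81-fold higher in tail (2.18 to 7.28), and *Nrp1* 3.33-fold higher (2.43 to 4.66). *Aplnr* had 627 UMIs in tail and 2 in culture, 73.0-fold higher in tail (20.1 to 604), and at 3000 UMIs it was found in 60.6% (47.8 to 72.4) of the tail cells and in 0 of 47 culture cells. Its ligand *Apln* was 2.25-fold higher in tail (1.43 to 3.72), but with the mean over cells of each cell's CPM the ratio of culture over tail was 0.856, within 2-fold. Of 8 tested receptor genes for BMP and TGFβ, 0 were at least 2-fold higher in culture (13.9% of all genes) and 1 in tail (15.5%). The median log2 ratio was 0.05. *Acvrl1*, which encodes ALK1, the BMP9 receptor of endothelium, had 136 CPM (99.5 to 183) in culture and 131 CPM (112 to 151) in tail.

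Among target genes of these receptors, *Id2*, *Id3*, *Bambi* and *Smad7* were higher in tail. Of 11 BMP target genes, 5 passed the filter in both libraries, 3 in tail alone and 3 in neither. The count of 5 genes at least 2-fold higher in tail (15.5% of all genes), with none in culture (13.9%), is thus partly set by the filter. *Id2* had 0 UMIs in culture and 110 in 35 tail cells, at least 8.54-fold higher in tail, and *Id3* had 243 CPM (192 to 302) and 830 CPM (783 to 879), 3.42-fold higher (2.73 to 4.35). *Bambi* and *Smad7*, feedback inhibitors, were 3.79-fold (2.51 to 5.99) and 3.04-fold (1.73 to 5.84) higher in tail, with a ratio of culture over tail of *Bambi* of 0.264, or 0.174 with the mean over cells of each cell's CPM, whereas *Id1* had a ratio of culture over tail of 1.11 (0.833 to 1.45). In the largest cluster of each library *Id2* and *Id3* were also higher in tail, by 1.79-fold (1.69 to 1.90) and 1.69-fold (1.63 to 1.75). Of 7 TGFβ target genes, all detected in both libraries, 4 were at least 2-fold higher in culture (13.9% of all genes) and none in tail (15.5%), with a median log2 ratio of 1.06. *Fn1*, fibronectin, had 1301 CPM (1181 to 1430) and 179 CPM (158 to 203), 7.25-fold higher in culture (6.20 to 8.51), and it was 4.02-fold higher (3.92 to 4.12) in the largest cluster. *Tgfbi*, a matrix protein gene induced by TGFβ, was 5.47-fold higher in the culture cells (3.38 to 8.90). The 2 conditions differed in origin, medium and library, and these cannot be told apart here.

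Of 20 endothelial transcription factors tested, 1 was at least 2-fold higher in culture, where 13.9% of all genes were, and 5 in tail, where 15.5% were, with a median log2 ratio of -0.62. *Erg*, an ETS factor that maintains the lineage, had 60.6 CPM (37.0 to 93.7) in culture and 102 CPM (86.4 to 120) in tail, and *Fli1*, another, was 2.12-fold higher in tail (1.48 to 3.11). *Sox18* and *Sox7* were 3.23-fold (2.27 to 4.75) and 2.51-fold (1.45 to 4.70) higher in tail, and *Epas1*, which encodes HIF2α, 2.61-fold (1.73 to 4.10). *Foxc2*, which takes part in lymphatic valve formation, was higher in culture, with 10 UMIs in 8 cells against 4 in 3 tail cells and a ratio of 10.7 (3.097 to 46.9), which was 2.87 with the mean over cells of each cell's CPM. *Etv2*, the factor that initiates the endothelial lineage, had 0 UMIs in both. Of the genes of haemogenic endothelium, *Runx1* had 2 UMIs in culture and 3 in tail, *Gfi1* and *Gfi1b* had 0, and *Spi1* had 7 UMIs, all in 1 culture cell. The 9 genes of this list summed to 139 CPM in culture and 164 CPM in tail, against 107 and 90.4 CPM in the other cells of each library. *Kit*, *Itga2b* and *Mecom* were the 3 tested, 2 having passed the filter in both libraries and 1 in tail alone. *Mecom* was at least 2-fold higher in tail (15.5% of all genes) and none in culture (13.9%).

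Of 14 tested basement membrane genes none was at least 2-fold higher in culture (13.9% of all genes), 4 were in tail (15.5%) and 10 were neither, with a median log2 ratio of -0.39. *Col15a1* had 27.3 CPM (12.5 to 51.8) in culture and 565 CPM (527 to 606) in tail, 20.7-fold higher in tail (10.9 to 45.5), and *Sparcl1* was 3.96-fold higher (3.33 to 4.75). The type IV collagen genes *Col4a1* and *Col4a2*, the most abundant of the list with *Sparc*, had 1913 and 1301 CPM in culture and 2770 and 1720 CPM in tail. Of 11 tested genes of caveolae and lipid transport, 2 were higher in culture, near the share of all genes, 5 in tail and 4 neither, with a median of -0.95, and 2 of the 11 had passed the filter in tail alone. *Cav1*, caveolin, was 4.21-fold higher in tail (3.32 to 5.41), and *Cd36*, the fatty acid receptor, had 0 UMIs in culture and 103 in tail, at least 7.99-fold higher. *Apoe* was 5.46-fold higher in culture (4.51 to 6.62), with 232 of its 248 UMIs in cells with *Prox1*.

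**Figure D4:**
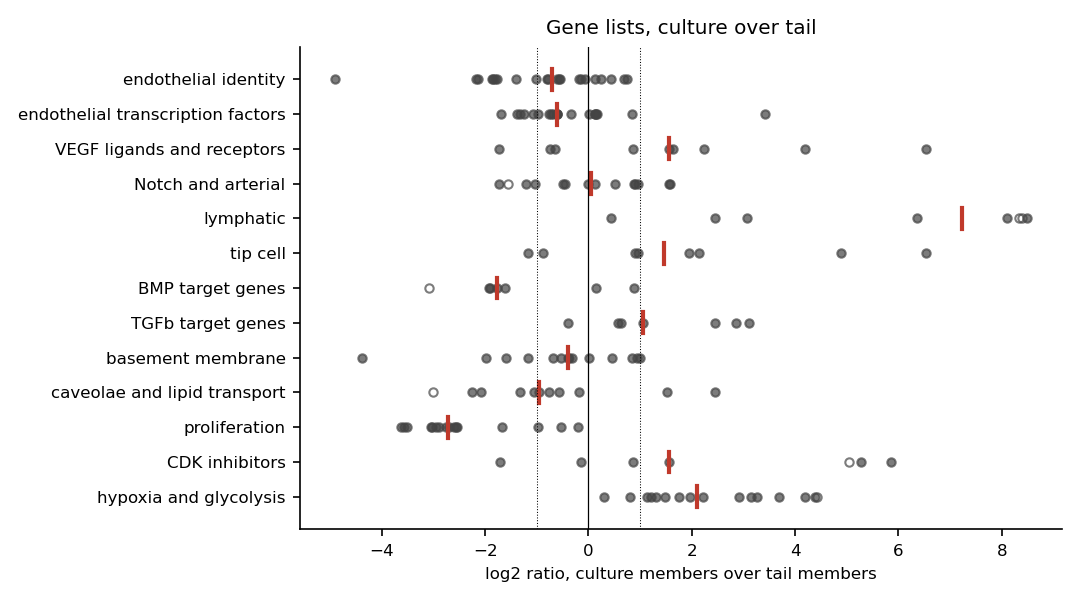
Log2 ratio of culture over tail endothelial cells for the tested genes of 13 lists (x axis), a point per gene, an open point where 1 side had no UMI and stands at its floor. Red bars are list medians over the tested genes, which for the lymphatic and proliferation lists are partly set by the filter, and dotted lines mark 2-fold. The hypoxia and glycolysis list has its median at 2.09 and the proliferation list at -2.72, and 12 of the 16 proliferation points are genes that passed the filter in tail alone and 5 of the 8 lymphatic points in culture alone.

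Cell cycle genes were higher in the tail endothelial cells. Of 16 proliferation genes, 13 were at least 2-fold higher in tail, where 15.5% of all genes were, and none in culture, with a median log2 ratio of -2.72. All 16 had passed the detection filter, 4 in both libraries and 12 in tail alone, where cells were deeper. *Mki67* had 30.3 CPM (10 UMIs) in culture and 251 CPM (355 UMIs) in tail, 8.27-fold higher (4.44 to 17.4). *Top2a* had 48.5 CPM (27.7 to 78.8) and 287 CPM (260 to 317), and *Cdk1* was 11.4-fold higher in tail (5.70 to 26.5). Of the 16 *Top2a* and 10 *Mki67* UMIs in culture, 10 and 7 lay in the *Col1a1*-rich cell, and without the cells rich in haemoglobin or *Col1a1* the ratios of culture over tail were 0.0633 and 0.0373 in place of 0.169 and 0.121. Among the S phase genes of the list, *Mcm5* and *Rrm2* were 7.45-fold (2.47 to 36.8) and 3.18-fold (1.40 to 8.92) higher in tail, while *Pcna*, *Mcm6* and *Tyms* had ratios of culture over tail of 0.505 (0.177 to 1.18), 0.865 (0.550 to 1.32) and 0.688 (0.432 to 1.05).

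The difference was seen in the number of cells as well. At 3000 UMIs, 4 of 47 culture cells (8.51%, 2.37 to 20.4) and 25 of 66 tail cells (37.9%, 26.2 to 50.7) had at least 2 of 5 cycling genes, and without thinning 6 of 58 (10.3%) and 37 of 71 (52.1%) had. In the largest cluster, *Top2a* went the opposite way, with 142 CPM (137 to 148) in culture and 20.2 CPM (17.6 to 23.2) in tail. Both divisions of the culture cells had 13 of 16 proliferation genes at least 2-fold lower than tail. Of all genes 16.0% were so in the cells with *Prox1* and 12.7% in those without. Both counts use the same tail cells, and over all culture cells 12 of the 16 genes had passed the filter in tail alone.

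Of 7 inhibitors of cyclin-dependent kinases, *Cdkn1a*, *Cdkn1b*, *Cdkn2a* and *Cdkn2b* were at least 2-fold higher in culture and *Cdkn2c* in tail, while *Cdkn1c* and *Cdkn2d* had ratios of 0.899 (0.786 to 1.03) and 1.82 (1.05 to 3.04). Of these genes, 4 passed the filter in both libraries, 2 in culture alone and 1 in tail alone. *Cdkn1a*, which encodes p21, had 740 CPM (650 to 839) in culture and 12.7 CPM (7.53 to 20.1) in tail, 58.2-fold higher (36.1 to 99.9), and at 3000 UMIs it was found in 66.0% (50.7 to 79.1) of the culture cells and 1.52% (0.0384 to 8.16) of the tail cells. In the largest cluster it was 204-fold higher in culture (139 to 312). *Cdkn2a* had 23 UMIs in 8 culture cells, all with *Prox1*, and 0 in tail, at least 32.9-fold higher.

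**Figure D5:**
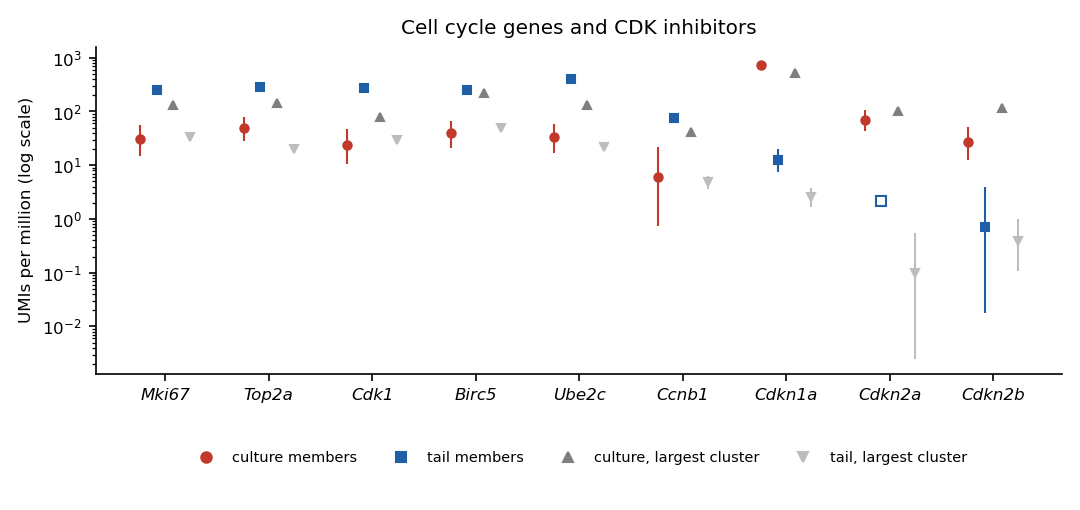
Levels (CPM, log scale) of cell cycle genes and inhibitors of cyclin-dependent kinases in the endothelial cells and in the largest cluster of culture and tail. Bars are exact 95% counting intervals and the open symbol is the floor of 3 counts. *Mki67* to *Ccnb1* are lower in culture than in tail endothelial cells but higher in culture in the largest cluster, and *Cdkn1a* is higher in culture in both.

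Hypoxia and glycolysis genes were mostly higher in culture. Of 16 hypoxia and glycolysis genes 14 were at least 2-fold higher in culture (13.9% of all genes) and none in tail (15.5%), with a median log2 ratio of 2.09. Of these 16 genes, 14 passed the filter in both libraries and 2 in culture alone. *Pgk1* was 8.88-fold higher in culture (7.68 to 10.3), against 8.44-fold (8.09 to 8.81) in the largest cluster. Of 10 immediate early genes, 2 of which passed the filter in tail alone, 1 was at least 2-fold higher in culture (13.9% of all genes) and 5 in tail (15.5%), with a median of -1.10. The 1 gene was *Dusp2*, with a ratio of 2.21. It was 1.95 with the mean over cells of each cell's CPM and 1.93 without cells rich in haemoglobin or *Col1a1*, both within 2-fold. The list summed to 1371 CPM in culture and 2698 CPM in tail, against 756 and 3321 CPM in the largest cluster, and *Fos* had 39.4 CPM (21.0 to 67.4) in culture and 416 CPM (383 to 451) in tail. Among the *Hox* genes 16 of 39 were tested, 8 of them passing the filter in both libraries, 1 in culture alone and 7 in tail alone, and 5 were higher in culture (13.9% of all genes) and 5 in tail (15.5%). The *Hox* list summed to 485 CPM in culture and 526 CPM in tail in the endothelial cells, and to 503 and 1298 CPM in the largest cluster. *Hoxb7* had 2 UMIs in culture and 106 in tail, *Hoxb9* 1 and 69, *Hoxa7* 0 and 72 and *Hoxa10* 0 and 43, whereas *Hoxb2* was higher in culture, at 30.3 CPM (10 UMIs) and 3.53 CPM (5 UMIs). *Hoxd8* and *Hoxd9* were shared, with ratios of 1.15 (0.756 to 1.72) and 1.53 (0.945 to 2.40), and in culture 29 of the 32 *Hoxd8* UMIs lay in cells with *Prox1*. *Meg3*, an imprinted non-coding RNA, had 1 UMI in culture and 148 in tail, 34.5-fold higher in tail (6.09 to 1370).

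*Scx*, the tendon transcription factor gene, was detected in the culture endothelial cells. It had 211 UMIs in 32 of 58 cells, or 640 CPM (556 to 732), against 33 UMIs in 14 of 71 tail cells, or 23.3 CPM (16.0 to 32.7). In tail, 1 cell held 16 of the 33 UMIs and the called doublet 4. It is also abundant outside the cluster, with 2410 CPM in the largest culture cluster and 1481 CPM over all other culture cells. The culture endothelial cells held 211 *Scx* and 37 *Col1a1* UMIs, but 1 cell held 36 of the *Col1a1* UMIs with 4 of *Scx*, and the other 57 held 207 *Scx* UMIs and 1 *Col1a1* UMI. For each *Col1a1* UMI the largest cluster held 0.879 *Scx* UMIs and the cluster with code 3, in which *Scx* is low, 1.72. Of the 32 endothelial cells with *Scx*, 30 had no *Col1a1* UMI.

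The *Scx* UMIs were unequal between the divided culture cells. Cells with *Prox1* had 179 *Scx* UMIs and 1 *Col1a1* UMI, and the others 32 and 36, so that *Scx* was 3.04-fold higher with *Prox1* (2.08 to 4.57). 14 culture cells had at least 5 *Scx* UMIs, with 34 in the highest, and 11 of them had a *Prox1* UMI. At 3000 UMIs, *Scx* was found in 42.6% (28.3 to 57.8) of the culture endothelial cells and 6.06% (1.68 to 14.8) of those of tail. It was found in 10.5% (8.69 to 12.4) of the cells kept with code 3 and in 90.7% (89.5 to 91.8) of those of the largest cluster. Over all 1088 culture cells with code 3 the median before thinning was 10369.5 UMIs. The ScxGFP transcript had 6 UMIs, each in its own cell. Uptake of free RNA from the many *Scx*-rich cells was not tested beyond these values. *Col3a1*, a collagen gene of tendon and other connective tissue, had 303 CPM (247 to 369) in culture and 52.2 CPM (41.0 to 65.6) in tail, and without the called doublet the ratio of culture over tail was 19.1 in place of 5.80.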

How the data were processed

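The authors deposited raw UMI counts for each cell, as whole numbers and not normalized, with the cell's cluster code, from 10x 3′ libraries processed with Cell Ranger and Seurat 3.0 (submitters' processing notes). They ignored multi-mapping reads, removed cells by mitochondrial share and by extreme totals, and assigned the culture cells to clusters of the tail after integration. The build used for these counts is not given in the sources used here. Cells were not clustered anew. Counts of the cells with code 11 were summed per library in NumPy 2.4.6 under Python 3.11.15, intervals came from SciPy 1.17.1, and Scrublet in Scanpy 1.11.5 called doublets at an expected rate of 6%. Genes detected in 10% or more of the cells on either side were compared, and a gene was counted as higher at 2-fold or more. With 1 library per condition there was no test, and intervals (Poisson, conditional binomial, Clopper-Pearson) cover counting error only. Named genes were those of the lists, the *Hox* genes, and the 10 with the largest ratio each way among genes with at least 30 UMIs and a higher level of at least 50 CPM. Members and lists were chosen with earlier results of these data known. Further genes, namely *Nrp2*, *Flt4*, *Tbx1*, *Nts* and others set beside the lists, and every division of the cells by *Prox1*, *Gja4* or *Slco1c1*, were chosen after values were seen. Alternatives varied the detection filter, the fold, the definition of CPM, the cells included and the thinning depth. Figures used Matplotlib 3.10.9, and the random seed was 1.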

Additional observations from a re-analysis of the deposited data

Results flagged for a closer look

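For 16 genes, culture and tail differed in opposite directions in the endothelial cells and in the largest cluster of each library, at least 4-fold each way. None of these differences between clusters was tested, since each condition had 1 library. Lower in the culture endothelial cells and higher in the culture cells of the largest cluster were the cell cycle genes *Top2a* (ratio of culture over tail 0.169 in the endothelial cells, 7.03 in the largest cluster), *Ube2c* (0.0842 and 6.11), *Birc5* (0.155 and 4.47), *Ccnb1* (0.0810 and 8.52), *Ccnb2* (0.123 and 4.19), *Cenpf* (0.130 and 5.40), *Aurka* (0.165 and 12.5) and *Tpx2* (0.172 and 5.95). The same held for *Fabp4*, a fatty acid binding protein (0.209 and 9.52), *Palmd* (0.0158 and 8.59) and the amino acid transporter *Slc7a5* (0.128 and 6.66). Higher in the culture endothelial cells and lower in culture in the largest cluster were *Nts* (810 and 0.0180), *Reln* (275 and 0.0364), *Scn3a* (253 and 0.0421), *Pcsk6* (43.7 and 0.148) and *Angpt2* (29.6 and 0.191). With the mean over cells of each cell's CPM, the ratio in the endothelial cells was 0.00637 for *Palmd* and 510 for *Scn3a*, and without cells under 5 identity genes it was 0.139 for *Fabp4*.

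A signal was also present in the D6 library, which the comparisons above did not use. Of 194 cells with code 6 there (3.26% of 5954), 138 had at least 5 of the 22 endothelial identity genes (71.1%), where at most 1.06% of the cells of any other D6 code had. Over all 194 cells with code 6, as for the values that follow, *Cdh5* had 394 CPM (366 to 423) and *Kdr* 451 CPM (421 to 482). *Lyve1* had 2 UMIs and *Scx* 1, and *Prox1* had 36.4 CPM (28.3 to 46.1), against 21.0 CPM in the other D6 cells. Of the other lymphatic genes and *Flt4*, *Reln* had 49.6 CPM (1.04 CPM in the other D6 cells), *Itga9* 48.0 (9.37), *Flt4* 31.1 (0.520), *Stab1* 29.5 (2.10), *Pdpn* 11.6 (150) and *Mmrn1* 10.6 (0), and *Stab2* had 0 UMIs. *Runx1* had 57.0 CPM (46.7 to 68.8) and *Etv2* 18.5 CPM (12.9 to 25.7), both above the levels of the later endothelial cells. The D6 codes come from a clustering of their own, so that code 6 is not a code of the D10 culture.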

How the results depend on the processing

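Each condition is 1 library, so no replicate could be left out, and libraries and conditions cannot be told apart. No paired analysis was possible because each condition has 1 sample. The number of genes at least 2-fold higher in culture was 897 with a UMI asked in 20% of cells, 3179 without that filter and 507 at 4-fold, in place of 1414, and higher in tail 863 where the counting interval also had to exclude 1 and 375 at 4-fold, in place of 1577. At 4-fold, 3 identity genes and 1 BMP target were higher in tail, in place of 9 and 5, and 8 hypoxia genes in culture, in place of 14. In the culture, 1011 genes were higher in the cluster than outside it with the 20% filter, in place of 1523. The counts of proliferation and *Hox* genes higher in tail stayed within 1.5 times in every alternative run for them, and none was run for *Hox* genes higher in culture. Of 115 gene ratios none reversed a 2-fold difference, but those of *Apln*, *Icam2* and *Dusp2* came within 2-fold, *Icam2* at 0.514 without cells under 5 identity genes and *Dusp2* at 1.95 with the mean over cells. 15 moved beyond their interval with the mean over cells of each cell's CPM, among them *Tie1* to 0.762, *Apln* to 0.856, *Foxc2* to 2.87 and *Spsb1* to 27.8, and 0 with a total without haemoglobin, mitochondrial and ribosomal protein genes. Without the called doublet 2 moved, *Col1a1* from 1.79 to 13.0 and *Col3a1*, and without the 1 culture and 3 tail cells rich in haemoglobin or *Col1a1* 6 did, with *Col1a1* at 0.356 and *Hbb-bs* at 0.115 in place of 0.00158. The cause was not tested. Division by at least 3 other lymphatic genes in place of *Prox1* gave 56.9% of the culture cells and an *Scx* ratio of 3.03. Depth limits genes with few UMIs, chiefly in culture, where 3 counts are 9.10 CPM.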

Other observations

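Outside the cluster, 5 culture cells and 7 tail cells had at least 8 of the 22 endothelial identity genes. The 7 tail cells were all among the 86 cells with code 7 (8.14%), which had a median of 1881 UMIs.

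Sex-linked genes divided the tail endothelial cells. 11 cells had at least 10 UMIs of *Xist* and no UMI of a Y-linked gene, and 57 cells had a Y-linked UMI and at most 1 *Xist* UMI. No culture endothelial cell had a UMI of *Xist* or of a Y-linked gene.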
